A study of Mus musculus with 15 samples.

Results

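Mouse embryonic fibroblasts (MEFs) at day 5 of an adipogenic protocol were compared by RNA-Seq with the fibroblasts from which the cultures started. The comparison used 6 of the 15 samples of the series, chosen by their labels alone: 3 treated samples of day 5 (MEFD5plu) and 3 samples of day 0 (MEFD0). Both groups were wild-type MEFs of strain BALB/c, with an embryo age of 10.5 days on the labels. MEFD0 cells had been kept in growth medium, DMEM with 10% FBS, and had received none of the agents. MEFD5plu cells had spent 3 days in growth medium with isobutylmethylxanthine (IBMX, 0.5 mM), insulin (10 µg/mL), dexamethasone (1 µM) and rosiglitazone (10 µM), followed by 2 days in growth medium without them. The difference between MEFD5plu and MEFD0 is a net change, which holds the response to the agents and the change of any culture over 5 days. The 3 untreated samples of day 5 (MEFD5min), of the same strain and genotype and in growth medium throughout, are therefore given beside it. Replicates carry the numbers 1, 3 and 4 in each group, and the labels do not say whether they are separate isolations of cells or repeats from the same cells, so the tests measure the spread between samples, whatever its source.

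Fat cells form from fibroblast-like precursors through a relay of transcription factors, in which Cebpb and Cebpd come early and Pparg and Cebpa follow and switch on the genes of lipid uptake, lipid storage and hormone secretion. Of the agents, IBMX blocks phosphodiesterases and so raises cAMP, dexamethasone activates the glucocorticoid receptor, insulin promotes glucose uptake and lipid synthesis, and rosiglitazone is a ligand of the protein that Pparg encodes. Precursors usually leave the cell cycle, lose stress fibres and remodel their matrix as they fill with lipid.

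The libraries held 27144003, 35852844 and 33878281 counts in MEFD0, in the order of replicates 1, 3 and 4 that is kept throughout, and 35420674, 33606850 and 35606948 in MEFD5plu. Those of MEFD5min held 34380215, 24030558 and 35970314. Levels are given as CPM, the counts of a gene relative to the total of its library after scaling of the libraries to each other. The genes of the mitochondrial chromosome took 3.15%, 3.05% and 3.54% of the counts in MEFD0, 2.39%, 2.19% and 2.61% in MEFD5min and 4.96%, 5.86% and 5.19% in MEFD5plu. The MEFD5plu share was above that of every sample of both other groups, and its part in the changes of single genes was not tested. On the log2 scale over all genes tested, samples of the same group lay 51.3 to 57.8 apart (Euclidean distance), and MEFD5plu samples lay 196 to 205 from MEFD0 samples.

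Of 26336 genes with at least 1 count in the 6 samples, 15997 had enough counts to be tested. Of these, 10400 (65.0%) had an edgeR adjusted p under 0.05 between MEFD5plu and MEFD0 and are called changed in what follows, 5634 (35.2%) higher and 4766 (29.8%) lower in MEFD5plu. Changes of at least 2-fold numbered 2901 up and 1692 down, changes of at least 8-fold 1061 up and 95 down, and changes of at least 32-fold 565 up and 15 down. The groups did not overlap for 11562 genes (72.3%), so separate groups are the common case here and single out no gene. The median log2 fold change (log2FC, MEFD5plu minus MEFD0) was 0.07, the value beside which each list median below stands. Counts of list members that rose or fell likewise stand beside the shares of 35.2% and 29.8% over all genes tested. Among called genes 54.2% were higher, but 43.7% when libraries were scaled by their totals alone, which moved the median by −0.18, so the balance of small changes depends on the scaling. In the same fit, MEFD5plu differed from MEFD5min for 8080 genes (50.5%), 26.3% higher and 24.2% lower, and MEFD5min from MEFD0 for 7421 genes (46.4%), 24.5% higher and 21.9% lower. These contrasts share samples with the net change, so their values stand side by side. Genes that changed in opposite directions from day 0 are counted in a later section, and no other overlap between the contrasts was computed.

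**Figure D1:**
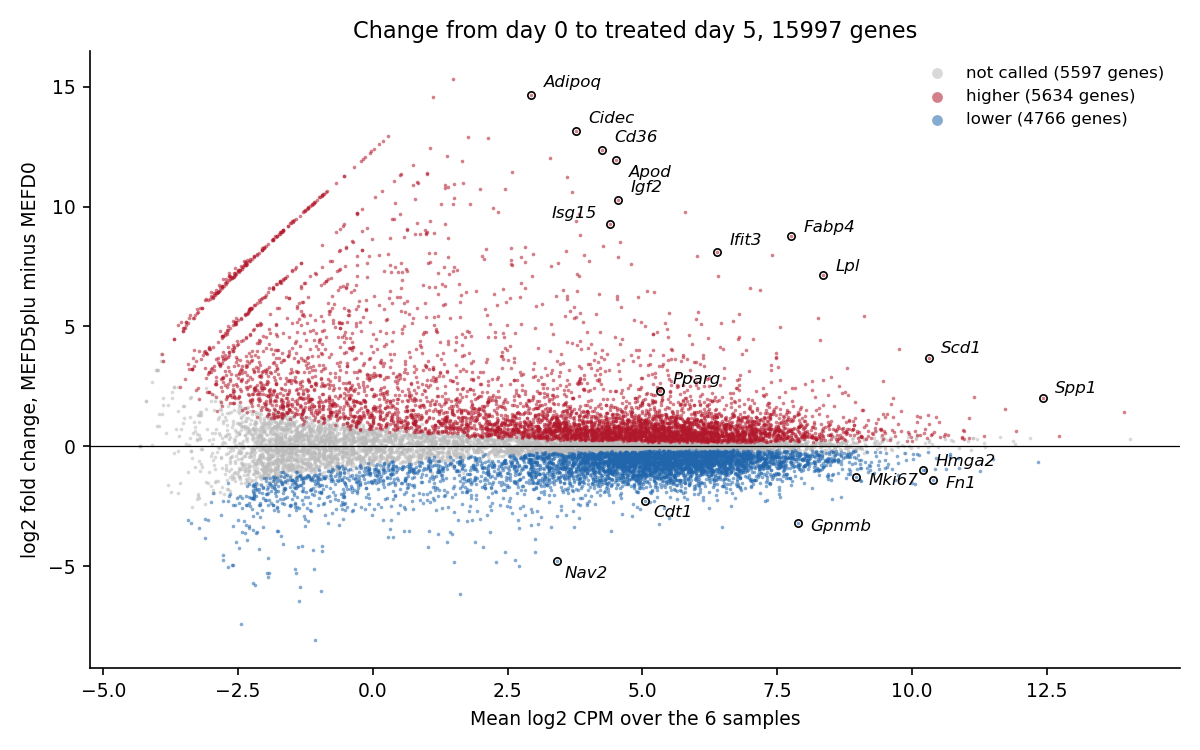
Each point is 1 of the 15997 genes tested, with its mean log2 CPM over the 6 samples on the horizontal axis and its log2FC (MEFD5plu minus MEFD0) on the vertical axis, coloured by call: 5634 higher, 4766 lower and 5597 not called. Of the genes labelled, Adipoq, Cidec and Cd36 lie highest, and the straight lines of points at the upper left are genes with 0 or few counts in MEFD0, whose fitted values depend on the prior count.

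The 12 largest increases among well expressed protein-coding genes (mean log2 CPM of at least 3, groups apart) held genes of lipid handling and of the interferon response. Cidec, which enlarges lipid droplets by fusing them, stood at 0.0343, 0.133 and 0.195 CPM in MEFD0, 0.0559, 0 and 0.0541 in MEFD5min and 1110, 1250 and 1210 in MEFD5plu. Cd36, a fatty acid transporter of the plasma membrane, stood at 0, 0.212 and 0.698 CPM, 0.531, 0.312 and 0.595 and 1520, 1830 and 1740 in the same groups. Every MEFD5plu sample was above 1000 CPM for both genes, and no sample of MEFD0 or MEFD5min reached 1 CPM. The log2FC was 13.16 (SE 0.386, edgeR adjusted p 3.46e-14) for Cidec and 12.36 (SE 0.500, adjusted p 1.54e-12) for Cd36. Each SE in this text is the size of the log2FC divided by the square root of the edgeR F statistic. For genes with few counts in MEFD0 it can be smaller than counting error alone, so it overstates the precision of their log2FC. Gpd1, which makes the glycerol 3-phosphate of triglycerides, and Fabp4, the fatty acid binding protein of fat cells, were also among these 12, with log2FC of 12.04 and 8.77. The interferon-induced genes Ifi44, Oasl2, Usp18, Isg15 and Ifi27l2a rose by 11.24, 9.71, 9.41, 9.26 and 8.83. Apod, a secreted lipid carrier, rose from 0.360 ± 0.293 CPM (mean ± SD, n = 3 here and for each mean that follows) to 1470 ± 79.5, with 49.7 ± 16.9 in MEFD5min. Igf2, a growth factor of the embryo, rose from 0.783 ± 0.918 to 997 ± 280 CPM and was at 933 ± 200 in MEFD5min, where the difference from MEFD5plu was 0.10 (adjusted p 0.805). Of its 50-base stretches, 61.2% also occur in other annotated genes, so its level is less certain than that of the others. The same share was 30.4% for Acaca, 25.8% for Pkm, 16.5% for Bnip3, 13.6% for H2-T23 and 11.6% for Spp1.

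The 12 largest decreases were smaller than these increases. Nav2, which guides neurite growth and the cytoskeleton, led them with 61.3, 63.3 and 44.8 CPM in MEFD0, 9.66, 13.0 and 9.57 in MEFD5min and 1.46, 2.67 and 1.96 in MEFD5plu. Its groups lay apart in that order, and the log2FC was −4.80 (SE 0.245, adjusted p 2.94e-11). Pcolce2, an enhancer of procollagen processing, changed by −4.43. Others were the amino acid transporter Slc6a17 (−3.87), the peptide hormone Cck (−3.39), the pentraxin Nptx1 (−3.36) and Lrp8, a receptor for reelin and apolipoprotein E (−3.23). The tyrosine kinase Syk (−3.38), the Hippo pathway protein Wwc1 (−3.25) and the sulfotransferase Chst1 (−2.98) were on the list as well. Gpnmb, a transmembrane glycoprotein, fell from 726, 798 and 628 CPM to 70.7, 90.0 and 72.2, and Smoc2, a secreted matrix protein, from 119, 135 and 123 to 16.9, 15.2 and 15.8. Both were already low in MEFD5min, at 114 ± 22.6 and 13.3 ± 1.77 CPM, whereas Nptx1 was still at 179 ± 8.27 there.

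Among 32 transcription factors that drive or restrain adipogenesis, 21 rose, 5 fell and 6 were not called, with a median log2FC of 0.87 against 0.07 over all genes. Without MEFD5plu replicate 3 the number that fell was 3. In MEFD5min 12 of these factors rose and 5 fell (median 0.19). Against MEFD5min 18 were higher and 4 lower in MEFD5plu (median 0.39). Pparg (chr6:115360951-115490399 of GRCm38) was at 17.9, 16.5 and 19.4 CPM in MEFD0, 9.64, 10.9 and 9.52 in MEFD5min and 82.7, 94.9 and 91.0 in MEFD5plu. The lowest MEFD5plu sample was above 4 times the highest MEFD0 sample, and the MEFD5min samples were the lowest of all. The log2FC was 2.32 (SE 0.102, adjusted p 4.55e-12), and 3.16 (adjusted p 3.37e-13) against MEFD5min. Cebpa (chr7:35119293-35121928), its partner in mature fat cells, rose from 1.27, 1.80 and 1.93 CPM to 51.9, 64.4 and 57.4, with 2.71, 2.45 and 3.33 in MEFD5min. All 3 MEFD5plu samples were far above the rest, with a log2FC of 5.10 (SE 0.171, adjusted p 1.73e-13). The early factors changed less: Cebpb rose from 7.67 ± 1.11 to 15.9 ± 1.56 CPM (log2FC 1.05, SE 0.135) and Cebpd from 41.0 ± 2.98 to 150 ± 8.82 (1.87, SE 0.109), with 8.25 ± 1.33 and 50.1 ± 5.77 in MEFD5min. Of their exons, 20.7% and 15% overlap genes of the opposite strand, and the strand setting of the counting is not stated. The labels name a TruSeq RNA kit and the paper a stranded TruSeq mRNA kit. The share of exons that overlap the opposite strand was 15.6% for Lipe, 24.9% for Adrb3, 18.6% for Aldh6a1, 19.7% for Uqcrc2, 22.3% for Bnip3 and 23.2% for Ccn2.

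Several other factors rose from near 0. Nr1h3, the oxysterol receptor LXRα, rose from 0.0689 ± 0.0426 to 34.3 ± 1.03 CPM (log2FC 8.90, SE 0.278), and Klf15, a factor of late adipogenesis, from 0.0468 ± 0.0541 to 5.35 ± 0.420 (6.67, SE 0.373). Mlxipl, the glucose-sensing factor ChREBP, had 0 counts in MEFD0 and 1.32 ± 0.355 CPM in MEFD5plu. A gene with at most 3 counts over a whole group is treated as being at the floor, and against 3 counts over the MEFD0 group Mlxipl was at least 45.5-fold higher. Such bounds and the intervals given for genes with 1 to 3 counts cover counting error only. Rxrg, a dimer partner of nuclear receptors, had 2 counts in MEFD0 and was 134 times as high in MEFD5plu, with a 95% counting interval of 36.7 to 1110. Ebf1 and Ebf2, which prime precursors for the fat lineage, rose by 2.18 and 2.02, and were already at 10.9 ± 1.27 and 30.1 ± 6.25 CPM in MEFD5min. The genes that fell included Klf4, an early activator of Cebpb, from 21.5 ± 3.54 to 4.31 ± 0.452 CPM (−2.32, SE 0.176), Klf5 (−1.88), Gata2, a restrainer of adipogenesis (−0.40, not called without MEFD5plu replicate 3), and Rxra (−0.49). Srebf1, a driver of lipid synthesis genes, stood at 72.9 ± 7.86 CPM in MEFD0 and 73.4 ± 4.94 in MEFD5plu and was not called (adjusted p 0.951).

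**Figure D2:**
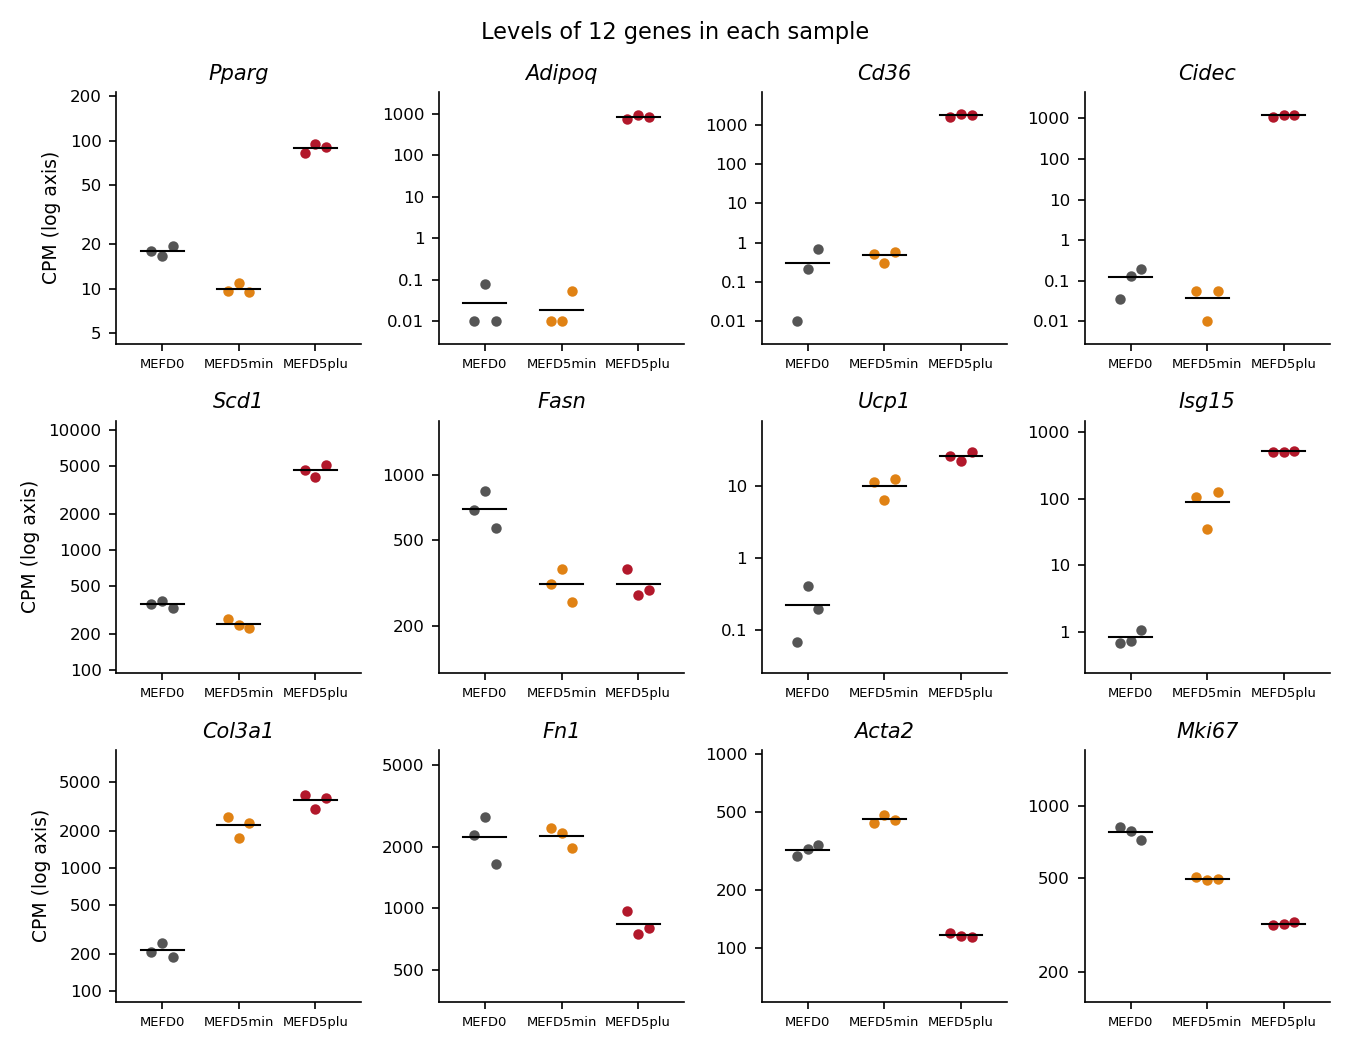
CPM of 12 genes in each sample on log axes, with MEFD0, MEFD5min and MEFD5plu side by side. Points are replicates 1, 3 and 4, bars are group means, and a sample with 0 counts is drawn at 0.01 CPM; Adipoq, Cd36 and Cidec were high only in MEFD5plu, whereas Isg15 and Col3a1 were above MEFD0 in both day 5 groups.

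Of 15 tested genes of fatty acid uptake and binding (16 listed), 7 rose, 3 fell and 5 were not called, with a median log2FC of 0.56. Fabp4 was at 10.3 ± 1.89 CPM in MEFD0, 6.54, 6.78 and 7.43 in MEFD5min and 4020, 4890 and 4660 in MEFD5plu. Lpl, the lipoprotein lipase that frees fatty acids from circulating lipoproteins, was at 27.4 ± 1.67 CPM in MEFD0, 23.2, 22.2 and 26.4 in MEFD5min and 3530, 4070 and 4170 in MEFD5plu. For both genes the 3 MEFD5plu samples stood far above the other 6, which were low throughout. The log2FC was 8.77 for Fabp4 (SE 0.194, adjusted p 1.82e-15) and 7.16 for Lpl (SE 0.146, adjusted p 8.84e-16). Acsl1, which activates fatty acids with coenzyme A, rose from 33.9 ± 1.19 to 1060 ± 109 CPM (4.97, SE 0.110). Its relative Acsl5 fell (−0.86), as did the transporter Slc27a1, from 38.0 ± 1.96 to 10.0 ± 0.708 CPM (−1.92, SE 0.144), and MEFD5min was as low for both, at 117 ± 3.84 and 12.2 ± 1.97 CPM.

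De novo lipogenesis split: 6 of 15 members rose, 8 fell and 1 was not called, with a median log2FC of −0.33. In MEFD5min 1 rose and 11 fell (median −0.69). Against MEFD5min 8 were higher and 3 lower in MEFD5plu (median 0.24). Fasn (chr11:120805846-120824547), the fatty acid synthase, was at 688, 845 and 570 CPM in MEFD0, 313, 366 and 256 in MEFD5min and 365, 277 and 294 in MEFD5plu. All day 5 samples were below all day 0 samples, treated or not, and Fasn changed by −1.17 (SE 0.192, adjusted p 4.41e-05). Scd1, a desaturase that makes monounsaturated fatty acids, was at 357, 380 and 328, 267, 239 and 224 and 4670, 4060 and 5070 CPM in the same groups. Only MEFD5plu was high, and Scd1 rose by 3.70 (SE 0.120, adjusted p 1.12e-13), while Scd2, the related desaturase, fell from 1920 ± 174 to 989 ± 62.2 CPM (−0.96). Thrsp, a regulator of lipogenesis in fat and liver, had the largest increase of the list, from 0.118 ± 0.0992 to 206 ± 17.0 CPM (10.74, SE 0.270). The carboxylase Acacb, whose product restrains fatty acid oxidation, rose (5.53), and its relative Acaca, which feeds synthesis, fell (−0.65). Acly, which makes cytosolic acetyl-CoA from citrate, fell (−0.60), whereas Acss2, which makes it from acetate, rose (2.41). The elongase Elovl6 had the largest decrease, from 230 ± 8.99 to 73.6 ± 4.62 CPM (−1.64, SE 0.0768).

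Of 17 tested genes of triglyceride synthesis (19 listed), 12 rose, 3 fell and 2 were not called, with a median log2FC of 0.85. Gpd1 was at 0.137, 0.0265 and 0.251 CPM in MEFD0, 0.0279, 0.0779 and 0.0541 in MEFD5min and 582, 595 and 594 in MEFD5plu. It was near 0 in all 6 samples without treatment and high in all 3 with it, and 13% of its exons overlap the opposite strand. Pck1, which feeds glycerol synthesis in fat, had 0 counts in MEFD0 and 14.4, 18.3 and 16.6 CPM in MEFD5plu, at least 562-fold higher. Dgat2, which adds the last fatty acid, rose from 1.92, 2.23 and 2.09 to 90.8, 82.6 and 90.9 CPM with no overlap (5.40, SE 0.139, adjusted p 1.01e-14). Agpat2, an acyltransferase needed for fat storage, rose from 14.8 ± 0.539 to 522 ± 47.5 CPM (5.14, SE 0.119), and Dgat1 from 12.7 ± 0.401 to 102 ± 1.69 (3.01). Agpat1, which does the same step as Agpat2 in most tissues, fell from 71.4 ± 5.53 to 43.4 ± 4.08 CPM (−0.72, SE 0.113).

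Of 12 tested lipid droplet genes (14 listed), 11 rose and 1 fell, with a median log2FC of 2.37. Plin1, the coat protein that gates lipolysis in fat cells, was at 0, 0 and 0.195 CPM in MEFD0, 0.0279, 0 and 0 in MEFD5min and 98.9, 94.7 and 88.9 in MEFD5plu. The 6 samples without treatment were at or near 0, and the log2FC was 10.36 (SE 0.301, adjusted p 3.24e-14). Plin2, the droplet coat of most cell types, was well expressed from the start and rose from 125 ± 8.20 to 864 ± 10.9 CPM (2.78, SE 0.0901). Plin4 rose from 17.5 ± 3.24 to 88.9 ± 6.13 CPM (2.35) but was at 0.162 ± 0.140 in MEFD5min, and Plin3, the coat protein of nascent droplets, fell (−0.35, SE 0.0763). Of 13 tested lipolysis genes (14 listed, of which 1 is an older name of another), 11 rose, none fell by the edgeR test and 2 were not called, with a median log2FC of 3.44. Pnpla2, the first lipase of triglyceride breakdown, was at 20.4, 23.4 and 22.9 CPM in MEFD0, 16.0, 17.1 and 14.9 in MEFD5min and 246, 203 and 222 in MEFD5plu. MEFD5plu was the high group and MEFD5min the low one, with a log2FC of 3.33 (SE 0.119, adjusted p 3.38e-13). Lipe, the hormone-sensitive lipase, rose from 2.47 ± 0.536 to 90.2 ± 5.16 CPM (5.19, SE 0.132), and Mgll, which releases the last fatty acid, from 0 counts to 23.8 ± 2.36 CPM, at least 817-fold. G0s2, the inhibitor of the Pnpla2 lipase, rose with them, from 0.0872 ± 0.106 to 142 ± 14.6 CPM (10.76, SE 0.287). Adrb3, the fat cell receptor for noradrenaline, had 2 counts in MEFD0 and 4.98 ± 1.19 CPM in MEFD5plu, a ratio of 254 (95% counting interval 70.0 to 2110). Prkar2b, a regulatory subunit of the kinase that cAMP activates, had the highest CPM of the list over the 6 samples and rose by 0.64, while the catalytic subunit Prkaca stood at 123 ± 6.95 and 123 ± 4.50 CPM and was not called.

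Promoters of the storage genes were searched for TTGCNNAA, the letters that C/EBP factors bind, on both strands. A gene counts as a match when any of its RefSeq promoter windows of GRCm38.p6, from 250 bases before to 50 after a start, holds the letters. There was a match for 27.3% of 11 lipid droplet genes, 25.0% of 12 triglyceride genes and 30.8% of 13 adipokine genes, against 12.2% of 27025 genes of the table and 10.3% of the 10987 tested genes in it. Other fat lists were below or near these shares, with 0 of 11 lipolysis genes, 0 of 12 genes of de novo lipogenesis, 8.33% for fatty acid uptake, 11.1% for the adipogenic transcription factors, 12.5% for brown and beige fat and 13.6% for fatty acid oxidation. Several lists outside fat metabolism were as high, with 44.4% of 9 genes of bone, cartilage, tendon and muscle fate, 33.3% of 9 complement genes, 28.6% of 14 glucocorticoid targets and 25.0% of 16 matrix protease genes, so the letters do not set the storage genes apart. The window of Plin1, at chr7:79732727-79733026 on the minus strand, is shown 5′ to 3′ because Plin1 coats the droplets of fat cells and its window holds 2 matches, marked by capitals, −187 and −58 bases from the start.
Plin1: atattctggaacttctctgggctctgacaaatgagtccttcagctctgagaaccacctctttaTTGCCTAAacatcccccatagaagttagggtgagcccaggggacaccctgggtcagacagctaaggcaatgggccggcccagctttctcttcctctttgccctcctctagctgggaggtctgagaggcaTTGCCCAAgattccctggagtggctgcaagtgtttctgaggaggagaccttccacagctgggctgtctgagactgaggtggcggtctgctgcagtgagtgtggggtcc
A match is a description of letters, not a bound site, and no tested member of the lists searched had a window with AGGTCA repeated with 1 base between, the letters that PPAR and RXR bind as a pair, which 0.0481% of the table's genes have in a window.

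Of 17 tested adipokine genes (18 listed), 15 rose and 2 fell, with a median log2FC of 6.60, and 7 of them were at the floor in MEFD0. In MEFD5min 9 rose and 2 fell (median 0.43). Against MEFD5min 12 were higher and 4 lower in MEFD5plu (median 3.57). Adipoq (chr16:23146536-23158028), which encodes adiponectin, was at 0, 0.0795 and 0 CPM in MEFD0, 0, 0 and 0.0541 in MEFD5min and 769, 960 and 837 in MEFD5plu. The 3 counts of MEFD0 came from a single sample, and the ratio of the groups was 29195 (95% counting interval 9990 to 141574). Retn, which encodes resistin, was at 153, 210 and 184 CPM in MEFD5plu against 2 counts in all of MEFD0, a ratio of 9320 (2580 to 76957). Cfd, the complement factor also called adipsin, and Adig, a small membrane protein of fat cells, had 0 counts in MEFD0 and were at least 3240-fold and 893-fold higher in MEFD5plu, at 94.7 ± 3.48 and 26.2 ± 4.12 CPM. Lcn2, a secreted lipocalin, rose from 0.101 ± 0.132 to 311 ± 16.1 CPM (11.45, SE 0.306), and Agt, which encodes angiotensinogen, from 0.706 ± 0.198 to 132 ± 6.60 (7.52, SE 0.223). Angptl4, an inhibitor of lipoprotein lipase, rose by 6.60 and the chemokine gene Ccl2 by 4.03, with 3.29 ± 0.608 and 202 ± 73.2 CPM in MEFD5min. The genes that fell from MEFD0 to MEFD5plu were Apln, which encodes apelin (−0.84, SE 0.0810), and Metrnl (−0.57). Lep, which encodes leptin, had 0 counts in all 6 samples of MEFD0 and MEFD5plu.

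Of 13 tested brown and beige fat genes (18 listed), 11 rose, 1 fell and 1 was not called, with a median log2FC of 4.07. In MEFD5min 6 rose and 2 fell (median 1.07). Against MEFD5min 10 were higher and 0 lower in MEFD5plu (median 1.63). Ucp1 (chr8:83290352-83298452), which uncouples respiration to make heat, was at 0.0686, 0.398 and 0.195 CPM in MEFD0, 11.1, 6.31 and 12.3 in MEFD5min and 25.8, 21.9 and 29.1 in MEFD5plu. The 3 groups lay apart, with untreated day 5 cultures between the others, and the log2FC was 6.76 (SE 0.378, adjusted p 9.45e-11) from day 0 and 1.36 (adjusted p 1.88e-04) from MEFD5min. Elovl3, an elongase of brown fat, and Cox8b, a respiratory subunit of brown fat and muscle, had 0 counts in MEFD0 and were at least 193-fold and 39.6-fold higher in MEFD5plu. Dio2, which activates thyroid hormone, rose by 5.38 and Cox7a1 by 4.07, from 0.287 ± 0.121 and 0.430 ± 0.301 CPM. Ppargc1a, a coactivator of mitochondrial genes, was at 1.34, 1.54 and 1.59 CPM in MEFD0, 0.475, 0.818 and 0.784 in MEFD5min and 4.68, 4.77 and 5.04 in MEFD5plu (1.69, SE 0.224). Prdm16, a determinant of brown fat identity, was the member that fell, from 0.570 ± 0.163 to 0.191 ± 0.111 CPM (−1.55), and was not called without MEFD0 replicate 3 or without MEFD5plu replicate 3. Zic1, Tbx1, Tmem26, Bmp8b and Otop1 had too few counts to be tested.

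Glucose uptake and insulin signalling genes showed no common direction: of 21 tested (22 listed), 8 rose, 8 fell and 5 were not called, with a median log2FC of 0.06. Calls in both directions were usual, since 35.2% of all genes tested rose and 29.8% fell. The count that fell was 3 to 5 without MEFD0 replicate 1, MEFD0 replicate 3, MEFD5plu replicate 3 or MEFD5plu replicate 4, and with scaling by library totals alone 5 rose and 10 fell. Slc2a4, the insulin-responsive glucose transporter, had 0 counts in MEFD0 and 11.8, 12.4 and 12.6 CPM in MEFD5plu, at least 421-fold higher. The transporter of most cells, Slc2a1, stood at 113 ± 9.13 CPM in MEFD0, 202 ± 36.7 in MEFD5min and 90.5 ± 9.87 in MEFD5plu (−0.32), and was not called without MEFD0 replicate 3 or without MEFD5plu replicate 3 or 4. Igf1, a growth factor made by fat and mesenchyme, rose from 1.17 ± 0.157 to 110 ± 4.85 CPM (6.54, SE 0.223), with 44.6 ± 13.4 in MEFD5min. Its receptor Igf1r fell, from 49.2 ± 5.58 to 24.6 ± 3.70 CPM, and the adaptor Grb14, which restrains the insulin receptor, had the largest decrease, from 65.7 ± 0.657 to 9.31 ± 0.767 CPM (−2.82, SE 0.109). Grb10, a related adaptor with the highest CPM of the list, stood at 644 ± 32.7 and 694 ± 11.6 CPM and was not called.

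Mitochondrial genes rose together in treated cultures. Of 27 tested genes of fatty acid oxidation (28 listed), 26 rose and 1 was not called, with a median log2FC of 1.77, against 5 that rose and 6 that fell in MEFD5min (median −0.04). Acadm, a dehydrogenase of medium-chain fatty acids, was at 57.2, 55.7 and 53.3 CPM in MEFD0, 61.2, 55.7 and 70.7 in MEFD5min and 489, 515 and 507 in MEFD5plu. The untreated samples of both days were low and the treated ones high, with a log2FC of 3.19 (adjusted p 8.61e-14). The peroxisomal enzymes Acaa1b and Ehhadh had larger changes, 7.78 and 6.78, from 0.388 ± 0.226 and 0.261 ± 0.0198 CPM, although 30.5% of the 50-base stretches of Acaa1b occur in other genes. Cpt1a, the gate for entry into mitochondria, was the member not called, at 93.2 ± 9.98 and 85.6 ± 8.47 CPM, and fell with scaling by library totals alone. Of 34 genes of the TCA cycle and of the breakdown of branched-chain amino acids, 31 rose, 1 fell (2 with library totals alone) and 2 were not called, with a median of 1.14 and of −0.15 in MEFD5min. Pcx, which makes oxaloacetate from pyruvate, led with 20.6 ± 2.24 CPM in MEFD0 and 398, 353 and 357 in MEFD5plu. Its treated samples were far above all others (4.16, SE 0.134, adjusted p 9.98e-14). Aldh6a1 and Bcat2, of valine breakdown, rose by 3.64 and 2.55, and Ogdh, of the cycle itself, fell (−0.56, SE 0.132).

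Of 66 nuclear genes of oxidative phosphorylation, 62 rose and 4 were not called, with a median log2FC of 0.82, and the median in MEFD5min was −0.04. With scaling by library totals alone 55 rose and 2 fell. The increases were moderate, up to that of Ndufv3, a subunit of complex I, from 31.9, 37.6 and 41.0 CPM to 116, 123 and 126 (1.72, SE 0.140). Its groups lay apart, and MEFD5min was at 61.9, 57.7 and 78.0. Uqcrc2 of complex III and Cox6c of complex IV rose by 1.35 and 1.33, and Atp5b, the catalytic subunit of the ATP synthase with the highest CPM of the list, by 0.34 (SE 0.0871), a change that was not called with library totals alone.

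Cholesterol synthesis went the other way. Of 22 tested genes (23 listed), 1 rose, 15 fell and 6 were not called, with a median log2FC of −0.57. All 22 fell in MEFD5min, where the median was −0.87, and against MEFD5min 8 were higher and 4 lower in MEFD5plu (median 0.21). Sqle, which makes the epoxide of squalene, was at 175, 178 and 165 CPM in MEFD0, 100, 85.2 and 91.4 in MEFD5min and 79.4, 85.0 and 81.8 in MEFD5plu. The day 0 samples were the high ones, with a log2FC of −1.07 (SE 0.0784, adjusted p 2.99e-09). Mvk, the mevalonate kinase, changed by −1.46, Srebf2, the regulator of the pathway, by −1.10, and Lss, which closes the sterol rings, by −1.08. Hmgcs1 stood at 358 ± 4.91, 230 ± 28.7 and 380 ± 29.6 CPM in MEFD0, MEFD5min and MEFD5plu and was not called in the net change. Insig1, which retains the pathway's regulators in the endoplasmic reticulum, was the member that rose (0.51, SE 0.0778), from 193 ± 11.4 to 274 ± 23.4 CPM, with 90.7 ± 2.67 in MEFD5min.

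Genes of glycolysis and of the response to low oxygen rose in both day 5 groups. Of 21 tested (22 listed), 15 rose, 1 fell and 5 were not called, with a median log2FC of 1.24, while in MEFD5min 17 rose and none fell by the edgeR test (median 0.83), and MEFD5plu minus MEFD5min had a median of 0.00. Bnip3, a mitophagy receptor induced by low oxygen, was at 44.8, 48.8 and 51.8 CPM in MEFD0, 310, 403 and 386 in MEFD5min and 596, 660 and 683 in MEFD5plu. All day 5 samples were above all day 0 samples, with a log2FC of 3.74 (SE 0.167, adjusted p 5.09e-12). Egln3, an oxygen-sensing hydroxylase, and Pdk1, which keeps pyruvate out of the TCA cycle, rose by 3.04 and 2.79. The lactate dehydrogenase gene Ldha rose by 1.24 and was at 1270 ± 53.0 CPM in MEFD5min and 1750 ± 45.3 in MEFD5plu. Pkm, the pyruvate kinase with the highest CPM of the list, stood at 2300 ± 115 and 2080 ± 204 CPM and was not called, though lower with DESeq2, with library totals alone and without MEFD5plu replicate 1, and Eno2 fell (−0.70, SE 0.144), the count of those that fell being 2 without MEFD5plu replicate 1 and 3 with DESeq2 or with library totals alone.

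Genes of the cell cycle were lower at day 5. Of 36 genes of DNA replication, 34 fell, 2 were not called and none rose by the edgeR test, with a median log2FC of −1.07. All 34 mitosis genes fell, with a median of −0.75. In MEFD5min 35 and 27 of these genes fell, with medians of −0.49 and −0.35, and against MEFD5min 25 of each list were lower in MEFD5plu, with 1 replication gene higher. Mcm5, a subunit of the replicative helicase, was at 212, 233 and 208 CPM in MEFD0, 127, 140 and 119 in MEFD5min and 71.0, 63.7 and 61.7 in MEFD5plu. Mki67, a marker of cycling cells, was at 821, 785 and 719, 504, 487 and 494 and 316, 320 and 326 CPM in the same order. Both genes stepped down from day 0 through untreated to treated day 5 with no overlap between groups, and in bulk RNA fewer cycling cells and less of each RNA per cell cannot be told apart. The log2FC was −1.73 for Mcm5 (SE 0.0891, adjusted p 3.20e-11) and −1.28 for Mki67 (SE 0.0774, adjusted p 2.74e-10). Cdt1, which loads the helicase, had the largest decrease of its list (−2.27, SE 0.161) and Foxm1, the activator of mitotic genes, that of the other (−1.93, SE 0.131). Cdk1, the mitotic kinase, fell less, from 229 ± 15.7 to 178 ± 8.13 CPM (−0.37, adjusted p 0.0195), and was not called without MEFD0 replicate 4 or without MEFD5plu replicate 1. Rrm1, of nucleotide synthesis, fell from 343 ± 4.42 to 191 ± 1.92 CPM (−0.84).

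Of 23 tested D cyclins, CDK inhibitors and pocket proteins (24 listed), 6 rose, 14 fell and 3 were not called, with a median log2FC of −0.63. Ccnd1, the cyclin that answers growth factors, was at 843, 843 and 825 CPM in MEFD0, 623, 620 and 587 in MEFD5min and 413, 390 and 399 in MEFD5plu. Treated samples were the lowest and day 0 samples the highest (−1.06, SE 0.0701, adjusted p 7.99e-10). Ccnd3, a cyclin of differentiating cells, rose (1.22), as did the inhibitors Cdkn1c, from 0.910 ± 0.356 to 21.4 ± 3.48 CPM (4.58, SE 0.229), Cdkn2c (1.80) and Cdkn1b (1.12). The p53 target Cdkn1a fell, from 132 ± 0.505 to 69.8 ± 3.57 CPM (−0.92, SE 0.0970), and so did the repressor E2f7 (−2.38, SE 0.149). Of the exons of Ccnd1 and Cdkn1c, 23.4% and 30.7% overlap the opposite strand.

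Promoter windows of the replication genes were searched for the E2F letters TTTGGCGC or TTTCGCGC, and those of the mitosis genes for TTTGAA, the cell cycle homology region (CHR), on both strands. E2F letters were in a window of 32.1% of 28 replication genes against 0.929% of the genes of the table and 1.69% of tested genes, and CHR letters in a window of 75.0% of 28 mitosis genes against 20.2% and 14.6%. The highest shares in other lists were 15.4% of 13 antigen presentation genes for E2F. For CHR they were 44.4% of 9 genes of bone, cartilage, tendon and muscle fate. Cdt1 and Cdc20, an activator of the complex that ends mitosis (−1.62, SE 0.0833), are shown because each holds 1 match, in capitals, close to the start: 32 bases after it for Cdt1 and −18 bases for Cdc20. The windows lie at chr8:122567765-122568064 on the plus strand and chr4:118437294-118437593 on the minus strand of GRCm38.p6 (RefSeq), written 5′ to 3′.
Cdt1: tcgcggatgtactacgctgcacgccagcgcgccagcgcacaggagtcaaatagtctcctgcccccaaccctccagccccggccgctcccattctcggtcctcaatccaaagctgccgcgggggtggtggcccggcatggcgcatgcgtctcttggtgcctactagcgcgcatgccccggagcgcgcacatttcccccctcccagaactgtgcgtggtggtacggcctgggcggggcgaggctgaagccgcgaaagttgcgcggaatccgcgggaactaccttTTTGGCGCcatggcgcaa
Cdc20: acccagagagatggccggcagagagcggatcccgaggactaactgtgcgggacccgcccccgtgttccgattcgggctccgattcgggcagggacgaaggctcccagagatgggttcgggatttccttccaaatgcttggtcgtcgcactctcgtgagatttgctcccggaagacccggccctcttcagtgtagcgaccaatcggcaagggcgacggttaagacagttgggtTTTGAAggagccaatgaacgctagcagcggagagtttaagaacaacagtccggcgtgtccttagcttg

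Of 39 tested collagen and matrix glycoprotein genes, 29 rose, 3 fell and 7 were not called, with a median log2FC of 1.20 (42 names were listed, 3 of them older names of genes already there). The count that fell was 5 with DESeq2, with the fit of the 6 samples and with either other scaling. In MEFD5min 31 rose and 2 fell (median 0.93). Against MEFD5min 13 were higher and 13 lower in MEFD5plu, with a median of −0.10. Col3a1, a fibrillar collagen of loose tissue, was at 207, 247 and 192 CPM in MEFD0, 2620, 1770 and 2340 in MEFD5min and 3920, 3030 and 3700 in MEFD5plu. Both day 5 groups were high, with a log2FC of 4.05 (SE 0.167, adjusted p 1.89e-12) from day 0 to MEFD5plu. The small proteoglycans Lum and Dcn rose by 8.14 and 6.51, from 0.772 ± 0.552 and 15.3 ± 2.01 CPM, to 240 ± 92.1 and 1600 ± 473 in MEFD5min and 229 ± 7.45 and 1400 ± 125 in MEFD5plu. Postn, a matrix protein of growing and repairing tissue, rose from 10.6 ± 1.71 to 2720 ± 165 CPM (adjusted p 1.59e-13), with 527 ± 189 in MEFD5min. Col15a1, a collagen beside basement membranes, rose from 0.0529 ± 0.0515 to 33.4 ± 2.09 CPM (9.31) against 0.594 ± 0.311 in MEFD5min. Col1a1 rose from 427 ± 107 to 743 ± 202 CPM (0.80, SE 0.266), below the 1290 ± 262 of MEFD5min, and was not called with library totals alone, without MEFD0 replicate 4 or without MEFD5plu replicate 1. Bgn, a proteoglycan with the highest CPM of the list, rose by 0.29 (adjusted p 0.0400), a call that DESeq2, both other scalings and the fits without MEFD0 replicate 1 or 4 or MEFD5plu replicate 1 or 4 did not make.

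In the net change from day 0, fibronectin went against most of the collagen and matrix genes. Fn1 (chr1:71585520-71653200) was at 2290, 2780 and 1640 CPM in MEFD0, 2470, 2340 and 1980 in MEFD5min and 976, 748 and 799 in MEFD5plu. Only the treated samples were low, and Fn1 changed by −1.41 (SE 0.237, adjusted p 5.51e-05). Ccn2, a matricellular protein and target of TGF-β and YAP, fell from 86.3 ± 18.6 to 41.4 ± 5.41 CPM (−1.06), while MEFD5min was at 211 ± 18.3. Of 24 genes of matrix proteases and their inhibitors, 19 rose, 2 fell and 3 were not called, with a median log2FC of 1.80 and of 1.04 in MEFD5min. Plau, the urokinase that activates plasmin, was at 130, 156 and 144 CPM in MEFD0, 2290, 1490 and 2280 in MEFD5min and 1450, 1310 and 1380 in MEFD5plu. Its day 5 samples were all far above day 0 (3.27, SE 0.142, adjusted p 3.77e-12). Adamts4 rose by 3.91 and Mmp3 by 2.28, with 13.7 ± 3.20 and 1320 ± 164 CPM in MEFD5min, and Adamts12 rose by 3.79, from 9.59 ± 0.967 to 132 ± 11.8 CPM. The protease inhibitor Timp2 fell from 675 ± 59.5 to 299 ± 21.9 CPM (−1.17, SE 0.109), and Plaur, the urokinase receptor, also fell (−1.05).

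Contractile and cytoskeletal genes were mostly lower: of 21 tested (22 listed), 12 fell, 4 rose and 5 were not called, with a median log2FC of −0.61, whereas in MEFD5min 7 rose and 4 fell (median 0.05). Acta2, the smooth muscle actin of myofibroblasts, was at 297, 322 and 338 CPM in MEFD0, 441, 485 and 458 in MEFD5min and 120, 116 and 114 in MEFD5plu. MEFD5min was the high group and MEFD5plu the low one, with changes of −1.45 (SE 0.117, adjusted p 1.05e-08) from day 0 and −1.98 (adjusted p 6.55e-10) from MEFD5min. Tagln, an actin-binding protein of the same cells, was at 180, 183 and 215, 277, 334 and 312 and 78.6, 83.2 and 75.8 CPM in the same order (−1.28, SE 0.142), and 67.9% of its exons overlap the opposite strand. Flna, the actin crosslinker with the highest CPM of the list, fell from 1860 ± 265 to 621 ± 76.6 CPM (−1.59, SE 0.142), and Srf, a factor that drives these genes, from 62.2 ± 5.12 to 32.5 ± 1.44 (−0.94). Mylk, the kinase of myosin light chains, rose from 5.57 ± 1.00 to 10.5 ± 1.19 CPM (0.91, SE 0.188), as did Des (4.42) and Myh11 (3.61) from near 0.

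Of 26 tested markers of preadipocytes and progenitors (29 listed), 10 were higher, 11 lower and 5 not called, with a median log2FC of 0.08. Over all genes tested 35.2% were higher and 29.8% lower, so calls in both directions do not set this list apart. Pdgfra, a receptor of fat precursors, rose from 124, 133 and 116 CPM to 358, 313 and 350 (1.45, SE 0.0849, adjusted p 1.65e-10), and stood at 297, 265 and 284 in MEFD5min. Both day 5 groups were above day 0 in every sample. Dlk1, an inhibitor of adipogenesis also called Pref-1, rose from 9.88 ± 1.14 to 16.0 ± 2.64 CPM, below the 22.1 ± 3.59 of MEFD5min (0.69, SE 0.167, adjusted p 0.00161). Ly6a, the stem cell antigen Sca-1, rose from 45.6 ± 4.16 to 250 ± 7.06 CPM (2.45, SE 0.165) but was at 16.4 ± 4.16 in MEFD5min, and 19% of its 50-base stretches occur in other genes. Thy1, a surface marker of fibroblasts, stood at 93.1 ± 6.17 and 93.1 ± 6.29 CPM and was not called. Hmga2, a chromatin protein of embryonic and dividing cells with the highest CPM of the list, was at 1720, 1670 and 1590 CPM in MEFD0, 1300, 1520 and 1220 in MEFD5min and 843, 847 and 826 in MEFD5plu. It stepped down over the groups with no overlap between day 0 and treated day 5 (−0.99, SE 0.0886, adjusted p 4.12e-08). The RNA-binding protein genes Igf2bp1, Igf2bp2 and Igf2bp3, also of embryonic cells, fell by 1.11, 0.31 and 0.85 on the log2 scale. Wnt10b, a Wnt ligand that blocks adipogenesis, had the largest decrease, from 15.7 ± 0.944 to 2.25 ± 0.374 CPM (−2.79, SE 0.156).

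Of 13 tested genes of bone, cartilage, tendon and muscle fate (23 listed), 6 rose, 5 fell and 2 were not called, with a median log2FC of 0.65. Over all genes tested 35.2% rose and 29.8% fell. In MEFD5min 5 rose and 4 fell (median 1.24), and against MEFD5min 5 were higher and 6 lower in MEFD5plu (median −0.03). Runx2, the master factor of bone, was at 35.8, 36.1 and 30.0 CPM in MEFD0, 25.3, 30.1 and 23.2 in MEFD5min and 17.5, 13.9 and 15.5 in MEFD5plu. Sox9, that of cartilage, was at 74.4, 62.7 and 66.1 CPM in MEFD0, 48.4, 57.9 and 42.6 in MEFD5min and 19.3 ± 2.21 in MEFD5plu. For both, every MEFD5plu sample was below every sample of the other groups, with log2FC of −1.12 (SE 0.147, adjusted p 3.64e-06) and −1.81 (SE 0.141, adjusted p 6.77e-09). Sox5, which works with Sox9, and Runx1 fell as well (−1.96 and −1.65). Spp1, the secreted phosphoprotein osteopontin, rose from 2730 ± 111 to 11157 ± 765 CPM (2.03, SE 0.161), with 8000 ± 1620 in MEFD5min. The cartilage genes Acan and Col2a1, the bone genes Bglap and Ibsp and the muscle factors Myod1, Myog and Myf5 had too few counts to be tested.

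Genes of the interferon response were higher at day 5. All 35 tested genes (36 listed) rose, with a median log2FC of 7.90, and all 35 also rose in MEFD5min (median 5.59) and were higher in MEFD5plu than in MEFD5min (median 1.90). Isg15, a ubiquitin-like modifier, was at 0.686, 0.742 and 1.06 CPM in MEFD0, 107, 35.8 and 125 in MEFD5min and 505, 513 and 528 in MEFD5plu. Ifit3, an antiviral RNA-binding protein, was at 4.96 ± 0.911 CPM in MEFD0, 222, 60.3 and 233 in MEFD5min and 1370, 1390 and 1420 in MEFD5plu. Day 0 samples were lowest, MEFD5min samples spread widely between, and the MEFD5plu samples were highest and close together. The log2FC was 9.26 for Isg15 (SE 0.449, adjusted p 1.53e-11) and 8.13 for Ifit3 (SE 0.436, adjusted p 5.64e-11), of whose 50-base stretches 51.2% occur in other genes. Zbp1, a sensor of foreign nucleic acid, had 2 counts in MEFD0 and 102 ± 8.51 CPM in MEFD5plu, a ratio of 5250 (95% counting interval 1450 to 43363). Of the factors of the pathway, Stat2 and Irf9, of the complex that interferon activates, rose by 3.51 and 3.72, and Irf7, which amplifies the response, by 8.30. The sensors Ddx58 and Ifih1 rose by 5.12 and 5.28, and Ifit2 had the smallest change of the list, from 73.5 ± 1.71 to 333 ± 7.81 CPM (2.18).

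The letters GAAA repeated with 2 bases between, the core of the interferon-stimulated response element (ISRE), were in a window of 65.4% of 26 interferon-response genes and 30.8% of 13 antigen presentation genes, on either strand, against 3.99% of the genes of the table and 3.79% of tested genes. Among the other lists the highest share was 14.3%, of 14 glucocorticoid target genes. The window of Isg15, at chr4:156200769-156201068 on the minus strand of GRCm38.p6 (RefSeq), is shown 5′ to 3′ because it holds 3 overlapping matches, which the capitals mark as 1 block that begins −78 bases from the start.
Isg15: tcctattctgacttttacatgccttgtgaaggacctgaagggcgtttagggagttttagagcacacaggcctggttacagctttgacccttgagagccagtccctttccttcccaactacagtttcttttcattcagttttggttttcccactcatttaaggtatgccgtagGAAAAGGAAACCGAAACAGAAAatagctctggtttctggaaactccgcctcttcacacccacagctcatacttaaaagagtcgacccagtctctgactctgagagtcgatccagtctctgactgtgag

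All 15 antigen presentation genes rose, with a median log2FC of 2.54 and of 1.47 in MEFD5min. B2m, the light chain of class I molecules, was at 1080, 1120 and 1180 CPM in MEFD0, 2830, 2570 and 3450 in MEFD5min and 4430, 4780 and 4830 in MEFD5plu. Each day 5 sample was above each day 0 sample (2.05, SE 0.135, adjusted p 7.98e-10). The class I gene H2-T23 rose by 6.34, the immunoproteasome subunits Psmb8 and Psmb9 by 5.73 and 5.05, and the peptide transporter Tap1 by 3.39. Of 14 tested complement genes (17 listed), 12 rose, 1 fell and 1 was not called, with a median of 4.01. In MEFD5min 10 rose and 0 fell (median 2.76). Against MEFD5min 10 were higher and 2 lower in MEFD5plu (median 1.14). C3, the central component, rose from 0.0498 ± 0.0205 to 58.0 ± 4.02 CPM (10.11, SE 0.271), with 1.45 ± 0.238 in MEFD5min, and Clu, a chaperone that restrains complement, from 18.8 ± 1.47 to 259 ± 14.7 (3.79), with 513 ± 86.5. Cfp, which encodes properdin, fell (−0.83, adjusted p 0.0203) and was not called without MEFD5plu replicate 3. Of 20 tested chemokine and cytokine genes (25 listed), 16 rose, 2 fell and 2 were not called, with a median of 2.92 and of 2.15 in MEFD5min. Ccl11, which attracts eosinophils, rose from 0.0707 ± 0.122 to 91.3 ± 9.30 CPM (10.13, SE 0.375), and Cxcl10, an interferon-induced chemokine, from 1.37 ± 0.169 to 106 ± 8.53 (6.27). Cxcl12, a chemokine of stromal cells with the highest CPM of the list, rose by 0.70 (SE 0.0744), and Csf1, the macrophage growth factor, fell by 0.82 on the log2 scale.

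Targets of the agents were examined 2 days after their removal. Of 17 glucocorticoid target genes, 14 rose, 1 fell and 2 were not called, with a median log2FC of 1.21 and of 0.17 in MEFD5min. Fkbp5, a cochaperone that restrains the glucocorticoid receptor, was at 41.6, 38.6 and 34.3 CPM in MEFD0, 37.9, 33.3 and 32.3 in MEFD5min and 94.0, 76.1 and 80.7 in MEFD5plu. The treated samples were the high ones (1.13, SE 0.0997, adjusted p 3.22e-08). Zbtb16 had 0 counts in MEFD0 and 2.99 ± 0.320 CPM in MEFD5plu, at least 103-fold higher, and Tsc22d3, which encodes GILZ, rose by 1.21. Errfi1, a brake on the EGF receptor, rose by 1.16 but was at 336 ± 10.2 CPM in MEFD5min and 371 ± 24.4 in MEFD5plu, and the kinase gene Sgk1 fell (−0.52, SE 0.150), with 2 members lower in the fit of the 6 samples and with no filter. Of 16 cAMP target genes, 10 rose, 3 fell and 3 were not called, with a median of 0.54. In MEFD5min 8 rose and 3 fell (median 0.24), and against MEFD5min 6 were higher and 7 lower in MEFD5plu (median −0.35). Rgs2, which restrains G protein signals, was at 5.63, 5.51 and 4.94 CPM in MEFD0, 3.97, 5.26 and 4.62 in MEFD5min and 72.2, 80.6 and 76.9 in MEFD5plu. It was high in each treated sample and low in the other 6 (3.84, SE 0.141, adjusted p 5.20e-13). Nr4a1 and Nr4a2, early response receptors, fell (−0.50 and −0.73, the former not called without MEFD0 replicate 3 or MEFD5plu replicate 3), as did the phosphodiesterase Pde4a (−0.85, SE 0.179).

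**Figure D3:**
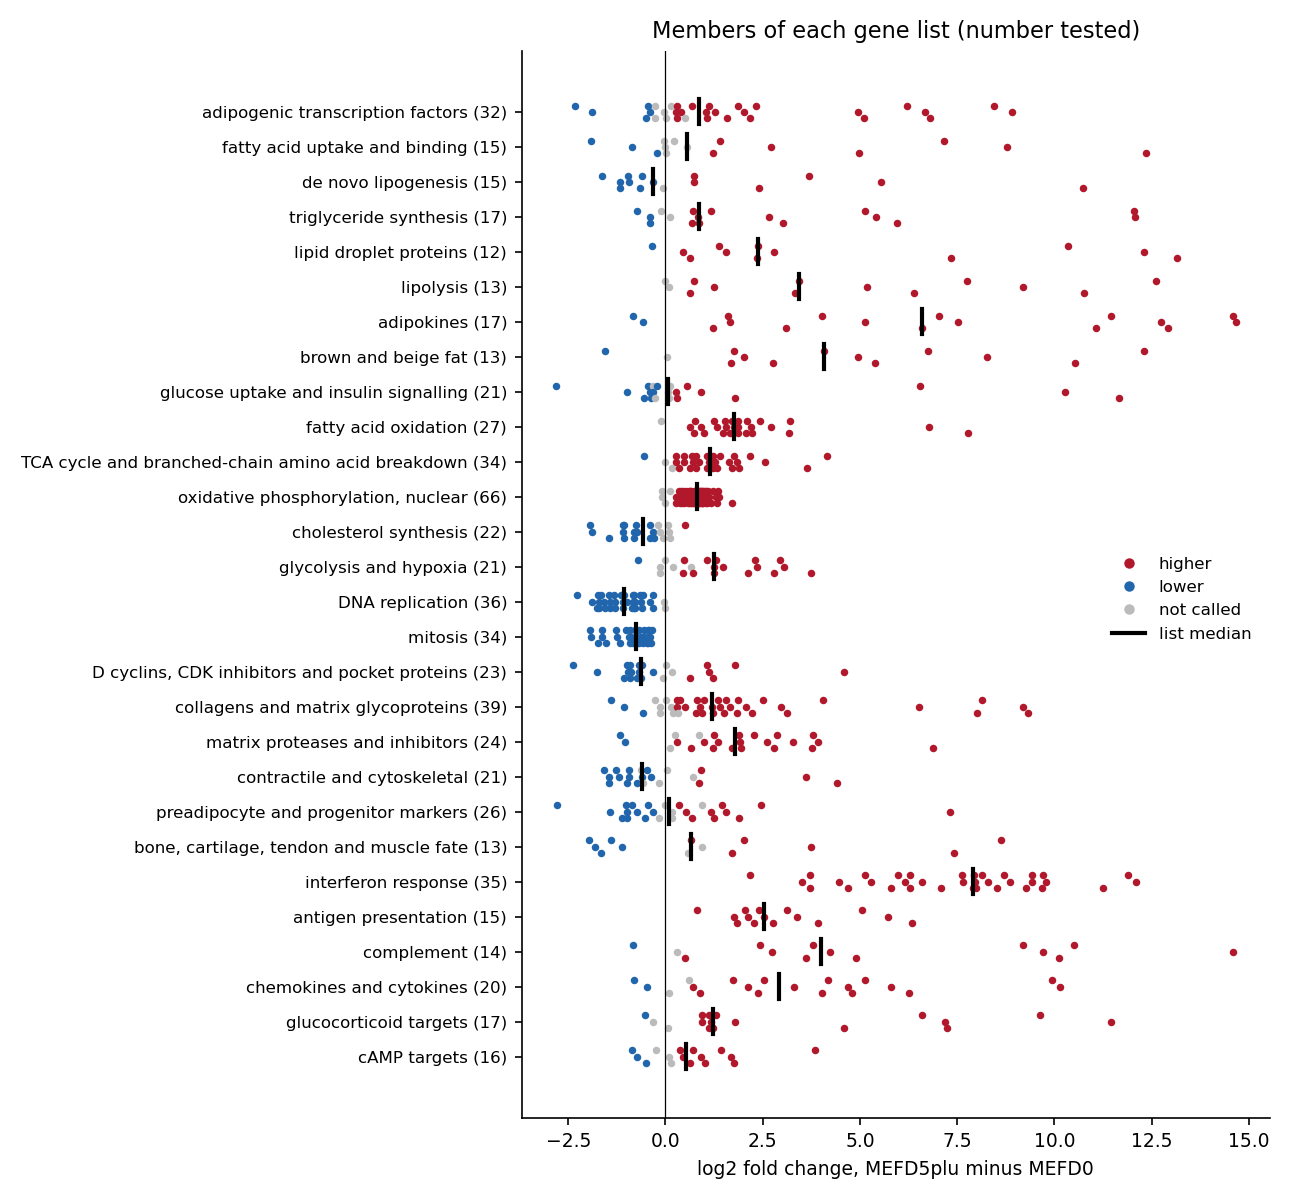
Each point is a tested member of a gene list, placed by its log2FC (MEFD5plu minus MEFD0) and coloured by its call, black bars are list medians, and vertical offsets within a list only separate points. Of the 28 lists drawn, which leave out the cell type markers and the genes of embryo sex, the interferon response has the highest median, 7.90, and DNA replication the lowest, −1.07.

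Markers of cell types were summed to describe the samples beside their labels. The 12 fibroblast markers summed to 9260, 10386 and 10342 CPM in MEFD0, 15791, 14107 and 14897 in MEFD5min and 14242, 12879 and 13900 in MEFD5plu, with 7 higher, 3 lower and 2 not called between MEFD0 and MEFD5plu. Vim, an intermediate filament, gave the most CPM over the 6 samples together and fell (−0.67, SE 0.124), S100a4 had the largest decrease (−2.11, with 47.4% of its 50-base stretches in other genes), and no fibroblast marker was at 0. The 11 adipocyte markers summed to 31.0, 36.5 and 38.4 CPM in MEFD0, 26.1, 28.1 and 25.7 in MEFD5min and 6620, 7840 and 7420 in MEFD5plu. All 10 that were tested rose, with a median log2FC of 12.20, or 10.08 with genes at the floor set to their bounds, most CPM came from Fabp4 in MEFD5plu and from Pnpla2 in MEFD0, and Lep was at 0 in MEFD0 and MEFD5plu. Fibroblast and adipocyte markers were therefore both high in every MEFD5plu sample. Fibroblast markers were high in MEFD0 and MEFD5min too, so they cannot check a label. The adipocyte markers were high only in samples labelled as treated, but their list was chosen with earlier results known and is no independent check. The share of cells that had turned into fat cells was not measured.

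Markers of other cell types were mostly low, and their part in the changes was not tested. The 13 macrophage markers summed to 13.1, 11.4 and 13.2 CPM in MEFD0, 19.3, 19.7 and 20.5 in MEFD5min and 15.7, 14.5 and 16.4 in MEFD5plu, with 2 higher, 1 lower and 2 not called of 5 tested. Adgre1, C1qa, C1qb, C1qc, Itgam and Tyrobp were at 0 in all 6 samples of MEFD0 and MEFD5plu, and Mrc1, a mannose receptor, rose from 0.794 ± 0.254 to 5.43 ± 0.488 CPM (2.75). The 10 endothelial markers summed to 2.30, 1.78 and 1.51 CPM, 16.3, 10.9 and 19.5 and 17.2, 12.7 and 17.6 in the same order, with 2 of 5 tested higher, 1 lower and 2 not called, and the lower count was 0 with no filter and without MEFD0 replicate 1, MEFD5plu replicate 3 or MEFD5plu replicate 4. Most of the day 5 sum was Emcn, at 12.5 ± 4.40 and 13.3 ± 2.25 CPM, while Cldn5 and Tie1 were at 0 in all 6 samples of MEFD0 and MEFD5plu. The 10 skeletal muscle markers summed to 1.44, 1.91 and 1.95, 5.53, 3.85 and 4.92 and 3.93, 4.38 and 5.43 CPM, with 3 of 5 tested higher and 2 not called, Chrna1 (0.94, not called with library totals alone or without MEFD0 replicate 1 or 3 or MEFD5plu replicate 3 or 4) giving the most over the 6 samples of MEFD0 and MEFD5plu together and Tnnt3 in each MEFD5plu sample, and Myod1 and Myf5 were at 0 in the same 6 samples. The 9 epithelial markers summed to 0.755, 0.822 and 1.28, 0.698, 1.21 and 0.784 and 1.58, 1.10 and 0.874 CPM, with 1 of 2 tested higher, Krt8, of whose 50-base stretches 26.9% occur in other genes, and 1 not called, Krt19, which gave the most over the 6 samples together and was lower with DESeq2, with the fit of the 6 samples and with library totals alone, and with Krt5 and Cldn4 at 0 in these 6 samples.

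The 9 neural markers summed to 315, 296 and 256 CPM in MEFD0, 334, 344 and 317 in MEFD5min and 182, 164 and 179 in MEFD5plu, with 2 of 6 tested higher and 4 lower, and the higher count was 1 without MEFD0 replicate 3 or 4 or without MEFD5plu replicate 1 or 3, in the fit of the 6 samples and with library totals alone. Most of this was Nes, an intermediate filament that dividing mesenchymal cells also make, which fell from 245 ± 28.2 to 158 ± 9.77 CPM (−0.63, SE 0.0975), as did Tubb3 (−1.57) and Map2 (−1.57), and Sox10 was at 0 in MEFD0 and MEFD5plu. The 9 blood and liver markers summed to 0.549, 0.371 and 0.670 CPM in MEFD0, 0.140, 0.0389 and 0.189 in MEFD5min and 0.149, 0.516 and 0.121 in MEFD5plu, with 1 of 2 tested higher and 1 lower, the higher count being 0 in the fit of the 6 samples. Afp gave the most over the 6 samples together, though Alb had the higher mean in MEFD5plu, and Gata1, Hbb-bt and Hbb-y were at 0 in all 6 samples of MEFD0 and MEFD5plu. Of the 5 genes that tell the sex of the embryos, the 4 on the Y chromosome rose and Xist was not called, at 0.0918 ± 0.0580 and 0.205 ± 0.0240 CPM, near the floor. The 5 genes summed to 968, 898 and 931 CPM in MEFD0, 1300, 1280 and 1390 in MEFD5min and 1820, 1980 and 1910 in MEFD5plu. Ddx3y, a helicase with the highest CPM of them, rose by 1.06 (SE 0.0915) and Uty, a histone demethylase, by 1.21 (SE 0.110), and whether the mix of male and female cells differed was not tested.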

How the data were processed

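RNA-Seq reads of 15 mouse fibroblast samples were measured, of which 6 make up the comparison. The counts per gene were used as the authors deposited them: per the labels, reads were aligned to GRCm38 with TopHat2 2.1.0 and counted with HTSeq, with DESeq2 listed downstream. Genes were named from GENCODE M21, primary assembly, chosen after results had been seen, which changed neither the number tested nor the calls. All 15 samples entered 1 edgeR 4.0.16 fit (R 4.3.3) with a mean per group, TMM scaling, filterByExpr, quasi-likelihood F-tests and Benjamini-Hochberg adjustment, with calls at an adjusted p under 0.05. In simulated data 198 of 15574 genes differed, by 1.5-fold to 8-fold, and edgeR recovered 150 of them with 6 false calls. A far smaller share of genes differed there than was called here, so the simulation does not test the scaling under so broad a change. Floors are 3 counts over a group, with exact 95% counting intervals for 1 to 3 counts. Gene lists and their members were chosen with earlier results of these data known. Named genes were the 12 largest changes in each direction, the extremes of each list, a chosen set of adipocyte, matrix and cell cycle genes, and further list members as examples. Alternatives were DESeq2 1.42.0, a fit of the 6 samples, other scalings, filters and thresholds, a replicate term, and leaving out each library. Some genes are not reported here.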

Additional observations from a re-analysis of the deposited data

Results flagged for a closer look

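Of the 208 genes named, 23 were flagged because they changed in opposite directions from day 0 in treated and in untreated cultures, each by a called change, with a called difference between MEFD5plu and MEFD5min. Pparg, for example, rose by 2.32 with treatment and changed by −0.84 without it, and the difference was 3.16 (SE 0.108, edgeR adjusted p 3.37e-13). Over all tested genes, 380 met the same rule, 231 with higher and 149 with lower levels in treated cultures. Pparg and the coactivator gene Ppargc1a rose in treated and fell in untreated cultures, with differences (log2FC, MEFD5plu minus MEFD5min) of 3.16 for Pparg and 2.81 for Ppargc1a. The genes of lipid handling that did the same had differences of 9.35 for Fabp4, 6.08 for Acsl1, 4.24 for Scd1, 5.67 for Agpat2, 9.15 for Plin4, 3.81 for Pnpla2 and 0.91 for Prkar2b. Among secreted, surface, contractile and glucocorticoid target genes the differences were 10.61 for Agt, 3.92 for Ly6a, 1.49 for Mylk and 1.59 for Tsc22d3. For enzymes of mitochondria and the sterol regulator gene Insig1 they were 0.60 for Atp5b, 2.86 for Bcat2, 4.73 for Pcx and 1.60 for Insig1. The opposite order, a fall with treatment and a rise without it, was found for 6 of the flagged genes, with differences of −1.98 for Acta2, −2.35 for Ccn2, −1.96 for Tagln, −0.96 for Nes, −1.16 for Slc2a1 and −0.99 for Metrnl. The treated change of Atp5b was not called with library totals alone. That of Slc2a1 was not called without MEFD0 replicate 3 or without MEFD5plu replicate 3 or 4. The contrasts share samples, and the causes were not tested.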

How the results depend on the processing

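The number of genes called, 10400, was 8792 to 10729 across all alternatives except that of a 2-fold minimum, where it was 4593, a change by construction, since a further condition was set. Leaving out 1 library at a time gave 9655 to 10062 calls and 54.3% to 54.8% of them higher in MEFD5plu. The share higher, 54.2%, stood at 43.7% with scaling by library totals alone, which moved the median log2FC of all genes by −0.18, and TMM scaling is built to bring a trimmed mean of the log ratios near 0. A term for the replicate number gave 10729 calls, and pairs of samples with the same number were no closer than others (correlation across genes of deviations from the group mean of 0.0270, −0.0700 and 0.0111, against −0.118 to 0.107), so it is not the main fit. None of the 208 named genes reversed under an alternative in which it had a value, which all had except in the fit of the 6 samples (206) and with at least 10 counts in each sample (160). With library totals alone Atp5b, Bgn, Chrna1 and Col1a1 lost their calls and Cpt1a, Krt19 and Pkm gained one, and Bgn also lost its call with DESeq2, where Krt19 and Pkm gained one, as did Krt19 in the fit of the 6 samples and Pkm without MEFD5plu replicate 1. The 2-fold minimum and the filter of at least 10 counts in each sample moved the most list counts, by construction: fewer genes qualify. Depth limits genes absent from MEFD0 to lower bounds of their fold changes.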
